A study of Mus musculus with 12 samples.

Results

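Primitive endoderm genes are described here through 10 members, Gata4, Gata6, Sox17, Sox7, Foxa2, Pdgfra, Dab2, Lama1, Col4a1 and Sparc, a list of known markers of that lineage whose rule uses no measured value. Their RefSeq accessions matched 13 of 39429 array probes, and all 10 were among the 29839 genes tested. RNA came from E14 mouse embryonic stem (ES) cells, a line grown without feeders on gelatin in serum and LIF, 48 hr after knockdown (KD) with esiRNAs (pools of short interfering RNAs) delivered with a lipid reagent. The 6 groups of 2 biological replicates were EGFP KD, the control, in which an RNA that ES cells lack is targeted, and KDs of Chd4, Mbd2, Mbd3, Dnmt1 and Tet1, with 1 Cy3-labelled RNA sample on each of 12 Agilent arrays. The study asked how loss of a DNA methyltransferase (Dnmt1), a methylcytosine oxidase (Tet1), a pair of methyl-CpG binding domain proteins (Mbd2, Mbd3) and the NuRD remodelling ATPase (Chd4) alters ES cell expression. All 5 comparisons share the same 2 EGFP KD arrays, and a transient KD is a partial loss in a mixed culture.

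The primitive endoderm is the epithelium that separates from the pluripotent epiblast in the blastocyst and later forms the visceral and parietal endoderm of the yolk sac. FGF signalling through ERK induces Gata6, and GATA and SOX transcription factors then switch on adaptors, receptors and the laminin and type IV collagen network of the basement membrane. ES cell cultures hold a small and variable share of cells that lean towards this fate. In bulk RNA, fewer cells of a type and less RNA per cell cannot be told apart.

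RefSeq promoter windows (build GRCm38.p6, the 250 bases before the start) were at hand for 5 of the 10 members. The 2 shown belong to basement membrane genes that differ in their number of CpGs, the dinucleotide that Dnmt1 methylates. CpGs are in capitals.
Col4a1, chr8:11312827-11313076, minus strand: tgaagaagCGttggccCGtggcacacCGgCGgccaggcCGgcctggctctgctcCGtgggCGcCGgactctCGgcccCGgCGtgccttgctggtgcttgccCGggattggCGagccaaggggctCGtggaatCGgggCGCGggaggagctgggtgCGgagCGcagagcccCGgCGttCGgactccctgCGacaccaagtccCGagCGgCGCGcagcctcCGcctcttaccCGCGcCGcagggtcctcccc
Sparc, chr11:55420081-55420330, minus strand: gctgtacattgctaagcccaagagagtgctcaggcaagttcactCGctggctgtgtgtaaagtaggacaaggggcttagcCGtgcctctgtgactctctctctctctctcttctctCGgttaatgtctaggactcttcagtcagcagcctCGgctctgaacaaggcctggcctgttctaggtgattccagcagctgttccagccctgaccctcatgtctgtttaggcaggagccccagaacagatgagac
The Col4a1 window held 31 CpGs and the Sparc window 4. Of 32851 windows in the table, 5.19% held at least as many CpGs as Col4a1 and 62.2% at least as many as Sparc. The Pdgfra window also held 4, the Dab2 windows held 2 and 17, and the Foxa2 windows held 13, 20 and 6. No methylation was measured in these arrays.

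Signals are given as log2 of the processed intensity over the array's 75th percentile, which lay between 1784.5 and 2451.6. Values were held at a floor of -4.86, and the share of probes well above background was 76.9% to 95.2%. A gene was called at a limma adjusted p under 0.05 over all genes. The arrays lay on 3 slides, which held 58.7% of the variance across genes, and slide 3 (replicate 2 of Dnmt1, Mbd3, Mbd2 and Chd4 KD) held no control. The target's own signal fell in Mbd3 KD (log2 fold change -2.96, adjusted p of 0.004 in limma) and in Chd4 KD (-1.28, adjusted p of 0.042). For Dnmt1 in Dnmt1 KD it was -1.99 (limma adjusted p = 0.37). The Tet1 probe A_55_P2122997 read 0.25 and 0.28 on the arrays labelled Tet1 KD replicate 2 and Mbd2 KD replicate 1, and 2.05 where Tet1 KD replicate 1 was the label. The Mbd2 probe A_66_P133043 read -2.71 and -2.73 on the arrays labelled Tet1 KD replicate 1 and Mbd2 KD replicate 2, and -1.20 where Mbd2 KD replicate 1 was the label. The second Mbd2 probe, A_55_P2036526, showed no such drop, at -0.85 on both arrays labelled Mbd2 KD, -0.97 on Tet1 KD replicate 1, and -0.71 and -0.83 in EGFP KD, and was lowest on Tet1 KD replicate 2 (-1.38). By the Tet1 signal and 1 of 2 Mbd2 probes, the arrays labelled Tet1 KD replicate 1 and Mbd2 KD replicate 1 go against their labels, and values of Tet1 KD and Mbd2 KD below are those of the arrays so labelled. Of the ES cell markers, Pou5f1 was saturated on all 4 EGFP KD and Chd4 KD arrays, and the Nanog probe lay near the floor there, between -4.86 and -4.10.

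Across the 5 comparisons, limma called 1 member in 1 KD, Lama1 in Chd4 KD. The background there was 3.19% of all genes called, 1.95% higher and 1.24% lower. In Mbd3 KD, 0.764% of all genes were called, 0.479% higher and 0.285% lower, and none of the 10 members. The limma fit called 0% of genes and 0 members in each of the KDs of Dnmt1, Tet1 and Mbd2. There, 1411, 850 and 622 of 29839 genes passed an unadjusted threshold of 0.05. Each count was a smaller share of the genes than 0.05, the share expected where nothing changes. The median log2 fold change of the 10 members was 0.12, 0.27, 0.04, 0.07 and 0.12 in Dnmt1, Tet1, Mbd3, Mbd2 and Chd4 KD, beside -0.01, 0.09, -0.03, 0 and 0 over all genes. With both arrays that go against their labels left out, Lama1 was still called in Chd4 KD (limma adjusted p = 0.029), and no member was in the other KDs. That fit holds 1 array each of Tet1 KD and Mbd2 KD, which are assumed to vary like the other groups.

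**Figure D1:**
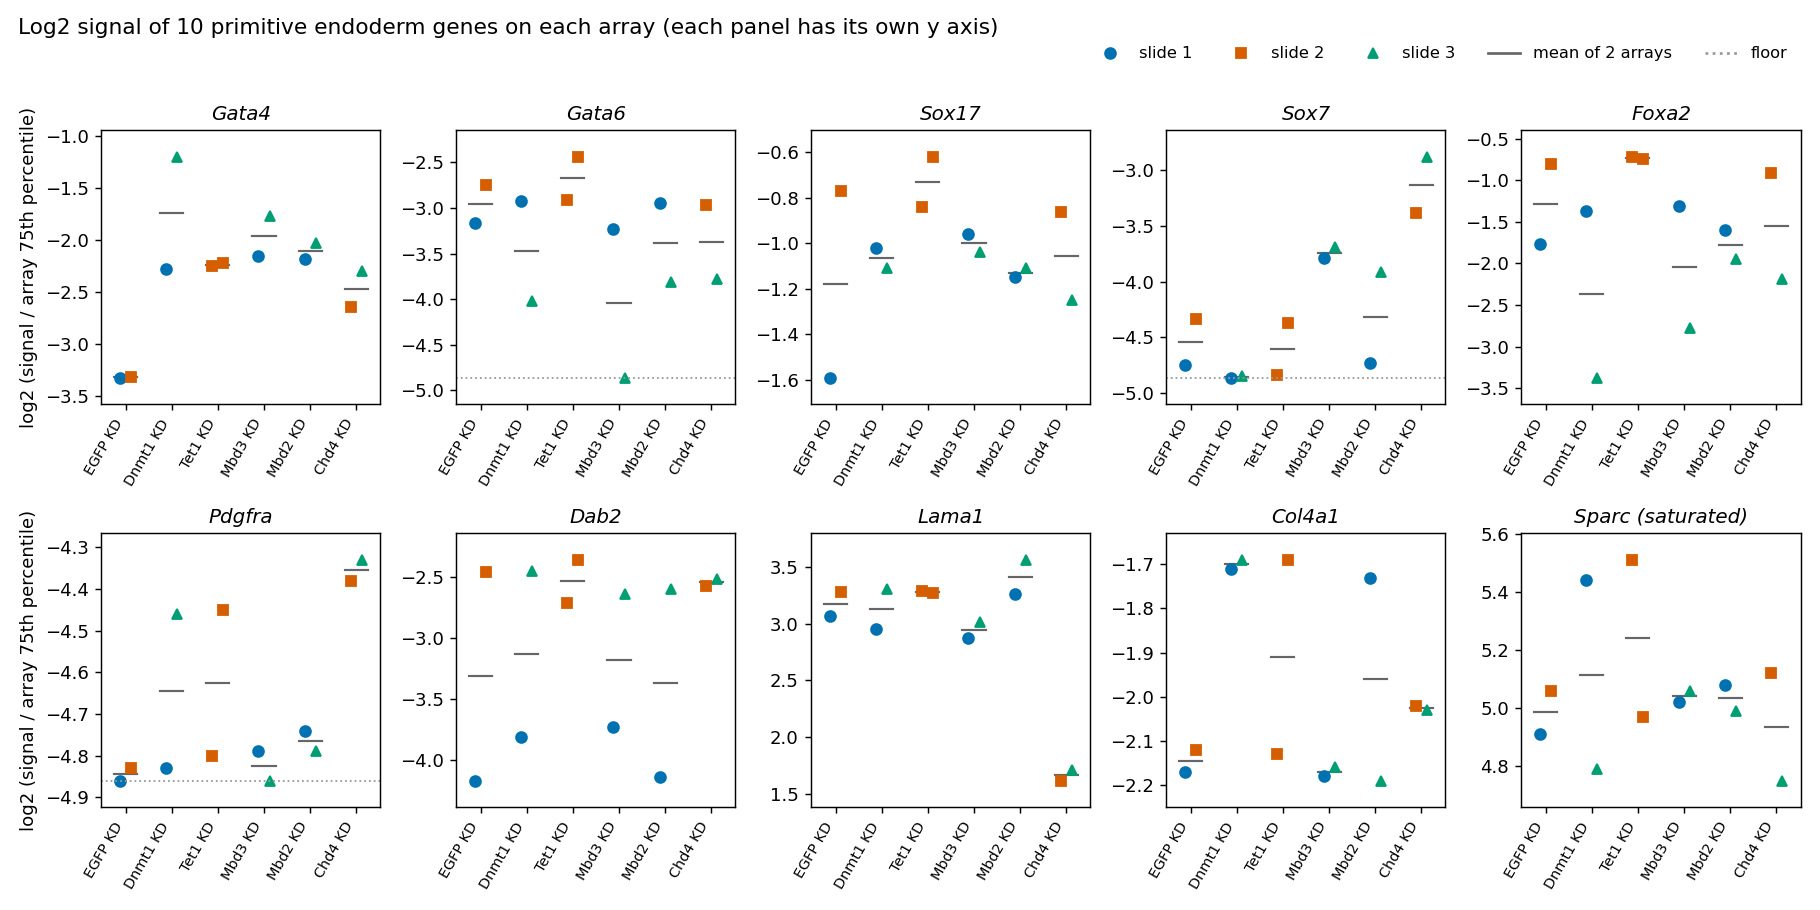
Log2 signal (y axis, signal over the array's 75th percentile) of the 10 genes on the 12 arrays, grouped by KD on the x axis, with colour and shape giving the slide, short lines the mean of 2 arrays and dotted lines the floor of -4.86. Both Chd4 KD arrays lie lowest for Lama1 and highest for Sox7, both EGFP KD arrays lie lowest for Gata4, and Dab2, Foxa2 and Gata6 follow the slide.

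Lama1, the alpha chain of laminin-111 and a core part of the basement membrane under the primitive endoderm, was lower in Chd4 KD. Its probe (A_66_P118600) read 1.62 and 1.71 in the 2 Chd4 KD arrays and 3.07 and 3.28 in the 2 EGFP KD arrays. The 8 arrays of the other KDs read 2.95 and 3.30 (Dnmt1), 3.29 and 3.27 (Tet1), 2.87 and 3.01 (Mbd3) and 3.26 and 3.56 (Mbd2). Both Chd4 KD arrays thus lay below each of the other 10, an order whose share over all genes was not counted. The log2 fold change was -1.51 (SE 0.15, n = 2 against 2, limma adjusted p = 0.0042), a 2.84-fold lower signal, and between the Chd4 KD and EGFP KD arrays that shared slide 2 the difference was -1.65. The other 4 log2 fold changes were between -0.23 and 0.23, with adjusted p of 0.78 or more.

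The difference between Chd4 KD and each other KD was tested in the same limma fit. Lama1 was lower in Chd4 KD than in Dnmt1 KD by a log2 difference of -1.45 (SE 0.15, limma adjusted p = 0.0061), where 2.65% of all genes were called. Against Tet1 KD it was -1.61 (limma adjusted p = 0.0037, background 2.83%), against Mbd3 KD -1.27 (limma adjusted p = 0.013, background 1.45%) and against Mbd2 KD -1.74 (limma adjusted p = 0.0027, background 3.11%). In 21 alternative fits these calls held in 20 (Dnmt1), 20 (Tet1), 15 (Mbd3) and 21 (Mbd2). Lama1 in Chd4 KD was not called in a fit of its 4 arrays alone (limma adjusted p = 0.164), and it was called in each of the other 21 alternatives, with log2 fold changes between -1.64 and -1.35.

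The 2 other basement membrane members gave no call. Col4a1, the alpha 1 chain of type IV collagen, read -2.17 and -2.12 in EGFP KD, and -1.71 and -1.69 in Dnmt1 KD. Its log2 fold change in Dnmt1 KD was 0.44 (SE 0.18), with an unadjusted p of 0.045 and a limma adjusted p of 0.94. Col4a1 read -1.69 and -1.73 on the arrays labelled Tet1 KD replicate 2 and Mbd2 KD replicate 1, and between -2.19 and -2.02 on the remaining 6 KD arrays. The first 2 are the arrays with the low Tet1 signals above. Tet1 probe A_55_P2122997 also read lower in Dnmt1 KD (1.47 and 1.18) and Chd4 KD (1.36 and 1.52) than in EGFP KD (2.14 and 2.00). The share of all genes ordered like Col4a1 over these arrays was not counted, and a link to Tet1 was not tested. In Chd4 KD Col4a1 read -2.02 and -2.03, a log2 fold change of 0.12 (limma adjusted p = 0.91), opposite in sign to Lama1. Sparc, a secreted glycoprotein that binds collagen, was saturated on all 12 arrays with probe A_55_P2046812, so no fold is given. Its second probe, A_55_P2046807, was not saturated and ranged from -2.91 to -1.16, with differences from EGFP KD between -0.50 (Tet1 KD) and 0.53 (Dnmt1 KD). The 2 EGFP KD arrays differed by more than that on this probe, at -1.43 on slide 1 and -2.91 on slide 2.

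The genes whose signals over the 12 arrays were most like the mean of Lama1, Col4a1 and Sparc, among 22594 genes well above background on each array, were Gusb (Pearson r 0.966), Camk2n1 (0.961), the unnamed probe A_55_P2186929 (0.958), Mia (0.956) and Utp11 (0.955). The Sparc probe in that mean was saturated on all 12 arrays. With the mean of Lama1 and Col4a1 alone, among 21413 genes saturated on no array, 0 of these 5 stayed among the top 5, which were Nipsnap1 (0.976), Slc11a1 (0.962), Slc43a1 (0.962), Zdhhc21 (0.956) and Fut9 (0.954). These arrays share slides and controls, so the coefficients are a description.

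Gata4, a zinc finger factor that can drive ES cells into extraembryonic endoderm, read higher on all 10 KD arrays than on both EGFP KD arrays, and passed the test in no KD. Probe A_55_P2028894 read -3.32 and -3.31 in EGFP KD. The Dnmt1 KD arrays read -2.28 and -1.20, those of Tet1 KD -2.25 and -2.22, those of Mbd3 KD -2.15 and -1.77, those of Mbd2 KD -2.18 and -2.03, and those of Chd4 KD -2.64 and -2.30. Of 29487 genes measured on each array, 238 (0.807%) had all 10 KD arrays above both EGFP KD arrays. Gata4 was the only member among them, and the 10 arrays are set against the same 2 controls. The log2 fold changes were 1.57 (Dnmt1), 1.08 (Tet1), 1.36 (Mbd3), 1.21 (Mbd2) and 0.84 (Chd4), with an SE of 0.33 each and limma adjusted p of 0.43, 1, 0.17, 1 and 0.33. On the same slide as a control, the KD arrays were higher by between 0.66 and 1.18. With normexp background correction, which put the median of all genes between -0.39 and -0.26, Gata4 was at 0.49, -0.07, 0.44, 0.30 and -0.15 in the same order, so the sign turned in Tet1 KD and Chd4 KD. In Mbd3 KD it was called, still at 1.36, when either Dnmt1 KD array was left out, where its SE was 0.16. Dnmt1 KD then has 1 array and adds nothing to the spread, so both fits are the same for Mbd3 KD. The named genes most like Gata4 over the arrays were Olfr212, Trim40, Pof1b and Olfr237 (Pearson r between 0.926 and 0.941).

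Sox7, an HMG-box factor of the primitive endoderm and of endothelium, was dim. Probe A_51_P476018 read -4.75 and -4.33 in EGFP KD, -3.38 and -2.88 in Chd4 KD, and -3.79 and -3.69 in Mbd3 KD. The 2 Chd4 KD arrays lay above all others and the 2 Mbd3 KD arrays came next. The share of all genes with such an order was not counted. The 6 arrays of Dnmt1, Tet1 and Mbd2 KD lay between -4.86, the floor, and -3.91. The log2 fold change was 1.41 in Chd4 KD (SE 0.31, limma adjusted p = 0.07) and 0.80 in Mbd3 KD (SE 0.31, limma adjusted p = 0.46), so neither was called. With the replicate number as a block the Chd4 KD value was called (limma adjusted p = 0.0187). Chd4 KD exceeded Dnmt1 KD, whose mean lay at the floor of -4.86, by 1.73 (SE 0.31, limma adjusted p = 0.04). That call held in 7 of 21 alternative fits, and the difference was 0.74 with normexp correction. The differences from Tet1, Mbd3 and Mbd2 KD, 1.48, 0.61 and 1.19, were not called (limma adjusted p = 0.065, 0.64 and 0.12). With normexp correction Sox7 took the opposite sign, at -0.47 for Chd4 and -0.81 for Mbd3, where the medians of all genes were -0.36 and -0.39. With 75th percentile scaling the Chd4 KD value, still 1.41, was called without either Mbd2 KD array, where its SE was 0.24. Mbd2 KD then has 1 array and adds nothing to the spread, so both fits are the same for Chd4 KD. Genes most like Sox7 included Efcab2 (Pearson r 0.946), Krt18 (0.945), Sdr42e1 (0.943), Ptpn1 (0.941) and Pdpn (0.940).

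Gata6, the GATA factor that opens the primitive endoderm programme, followed the slide. Probe A_51_P411917 read between -3.23 and -2.44 on the 8 arrays of slides 1 and 2. On slide 3 it read -4.02 in Dnmt1 KD, -3.81 in Mbd2 KD, -3.78 in Chd4 KD and the floor, not well above background, in Mbd3 KD. Slides held 80.0% of its variance. Foxa2, a forkhead factor of visceral and definitive endoderm, did the same with probe A_55_P2134236, with slide means of -1.51, -0.79 and -2.57 and 82.3% of the variance between slides. The lowest Foxa2 value, -3.37, was Dnmt1 KD replicate 2 on slide 3, against -1.37 for replicate 1 on slide 1. The second Foxa2 probe was well above background on no array. Foxa2 in turn was most like Olfr170, Prmt8, Blk and Sprr3 (Pearson r between 0.991 and 0.995), and Gata6 and Foxa2 correlated at r = 0.86 over the 12 arrays. With slide as a block, the largest log2 fold change of Gata6 or Foxa2 in size was -0.50, Gata6 in Mbd3 KD (limma adjusted p = 0.577).

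Sox17, the SOX factor that follows Gata6 in the primitive endoderm, read between -1.59 and -0.62 with probe A_55_P2094706. The lowest value was EGFP KD replicate 1, at -1.59, and the other control read -0.77, so the 10 KD arrays, from -1.25 to -0.62, overlapped the controls. Its log2 fold changes were between 0.05 (Mbd2 KD) and 0.45 (Tet1 KD), with limma adjusted p of 0.89 or more. Slides held 56.3% of its variance. With slide as a block the log2 fold changes ran from 0.11 (Chd4 KD) to 0.48 (Mbd3 KD, SE 0.15, limma adjusted p = 0.27), with no call. A second probe lay at or near the floor, with a highest value of -3.93 in Dnmt1 KD replicate 2.

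Dab2, an endocytic adaptor needed for the sorting of primitive endoderm cells, separated slide 1 from the rest. Probe A_55_P1977473 read -4.17 in EGFP KD replicate 1, -3.81 in Dnmt1 KD replicate 1, -3.73 in Mbd3 KD replicate 1 and -4.14 in Mbd2 KD replicate 1, the 4 arrays of slide 1. The remaining 8 arrays read between -2.71 and -2.36, EGFP KD replicate 2 included, and slides held 95.7% of its variance. The log2 fold change of 0.78 in Chd4 KD and in Tet1 KD (SE 0.78) became 0.08 and 0.02 with slide as a block.

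Pdgfra, the PDGF receptor on nascent primitive endoderm, was near background. Probe A_51_P345649 was well above background on 7 of 12 arrays, among them both Chd4 KD arrays (-4.38 and -4.33) and 1 EGFP KD array (-4.83, the other at the floor). Its log2 fold change in Chd4 KD was 0.49 (SE 0.15, limma adjusted p = 0.19), and it was 1.22 with a floor lowered to -6.94 (limma adjusted p = 0.27). With normexp correction, where the median of all genes was -0.36, its sign turned, at -0.85 (limma adjusted p = 0.667). No fold is given for Mbd3 KD, where neither array was well above background.

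**Figure D2:**
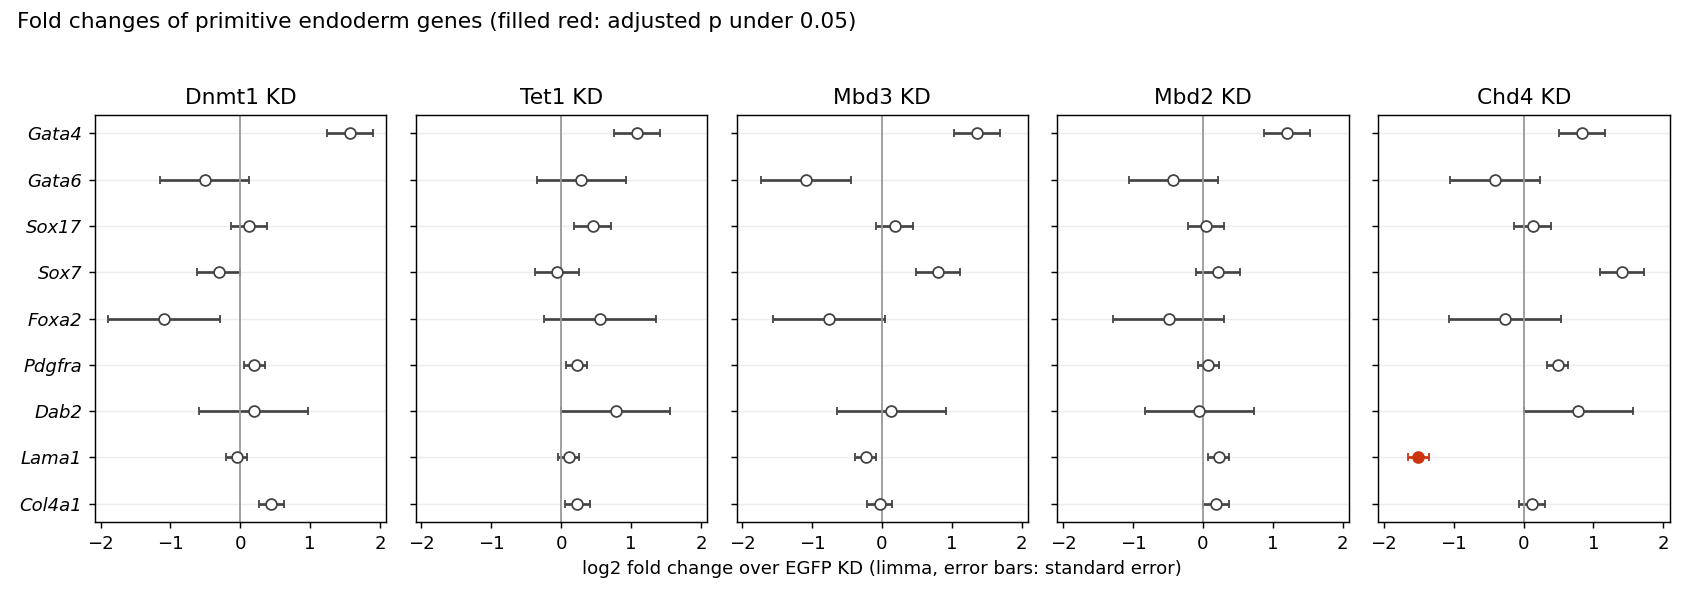
Log2 fold change over EGFP KD (x axis, limma, bars show the standard error) of 9 members in each of the 5 KDs, with red filled points for an adjusted p under 0.05. The single filled point is Lama1 in Chd4 KD at -1.51, and Gata4 lies to the right of 0 in each KD. Sparc (saturated) and Pdgfra in Mbd3 KD (not well above background) are left out.

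Other genes of the lineage were counted by list. Of 10 further extraembryonic endoderm transcription factors, limma called 2 higher and 1 lower in Chd4 KD and none in Mbd3 KD, with medians of 0.02 and 0.17. Otx2, a homeobox factor of visceral endoderm and also of the primed epiblast, read 2.74 and 3.01 in Chd4 KD against 1.14 and 0.94, a log2 fold change of 1.84 (SE 0.26, limma adjusted p = 0.013). Hnf4a, a nuclear receptor of visceral endoderm, rose by 0.76 (SE 0.13, limma adjusted p = 0.024), a call held in 10 of 22 alternatives. Its sign turned (-0.09) with normexp correction, where the median of all genes was -0.36. Hhex, a homeobox gene of anterior visceral and definitive endoderm, fell by 1.22 (SE 0.21, limma adjusted p = 0.031). Its 2 Chd4 KD arrays read -2.77 and -3.00 and its controls -1.65 and -1.68.

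Of 16 visceral endoderm products, 14 were tested. In Chd4 KD 2 were called higher and 0 lower, and of all 14, 8 were higher and 6 lower (median 0.12). In Mbd3 KD 1 was called higher, and of all 14, 4 were higher and 10 lower (median -0.16). Amn, the membrane protein that carries cubilin to the surface of visceral endoderm, read -2.21 and -2.16 in EGFP KD, 0.14 and 0.61 in Mbd3 KD, and -0.66 and -0.51 in Chd4 KD. The log2 fold changes were 2.56 (limma adjusted p = 0.004) and 1.60 (limma adjusted p = 0.0031), or 5.88-fold and 3.04-fold. Cubn, the gene of cubilin, went the other way in Mbd3 KD with no call, at -1.70 (SE 0.35, limma adjusted p = 0.11). In Chd4 KD Cubn was at -0.44 (limma adjusted p = 0.81). Afp, the fetal albumin relative secreted by visceral endoderm, read -2.30 and -2.42 in Chd4 KD, and -4.86 and -4.39 in EGFP KD, of which 1 array was well above background. It rose by 2.26 (limma adjusted p = 0.0048), and lost the call with normexp correction, with the lower floor and in the fit of the 4 arrays alone. In Mbd3 KD the log2 fold change of Afp was -0.12 (limma adjusted p = 0.95).

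Of 17 further parietal endoderm and basement membrane genes, 16 were tested, and 2 were called higher and 0 lower in Chd4 KD (median 0.05) and 0 in Mbd3 KD (median -0.12). Serpinh1, the chaperone that folds collagen, read 1.32 and 1.1 against -0.56 and -0.46, a rise of 1.72 (SE 0.10, limma adjusted p = 0.00057). Pth1r, the parathyroid hormone receptor of parietal endoderm, rose by 2.07 (SE 0.35, limma adjusted p = 0.027). The partner chains of Lama1 were not called in Chd4 KD, with log2 fold changes of -0.60 for Lamb1 (limma adjusted p = 0.48) and -0.94 for Lamc1 (limma adjusted p = 0.39, with 1 Chd4 KD array after a spot marked as an outlier was dropped). In Mbd3 KD Lamb1 was 1.74-fold and Lamc1 1.70-fold lower, also with no call, beside 1.52-fold and 1.91-fold lower in Chd4 KD. Col4a2, the partner chain of Col4a1, was at 0.15 in Chd4 KD (limma adjusted p = 0.93). Of 18 genes of FGF, ERK and PDGF signalling, Pdgfc, a ligand of Pdgfra, was the single call, at -0.72 in Chd4 KD (SE 0.14, limma adjusted p = 0.04), held in 6 of 22 alternatives. The medians of that list were -0.14 in Chd4 KD and -0.07 in Mbd3 KD.

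**Figure D3:**
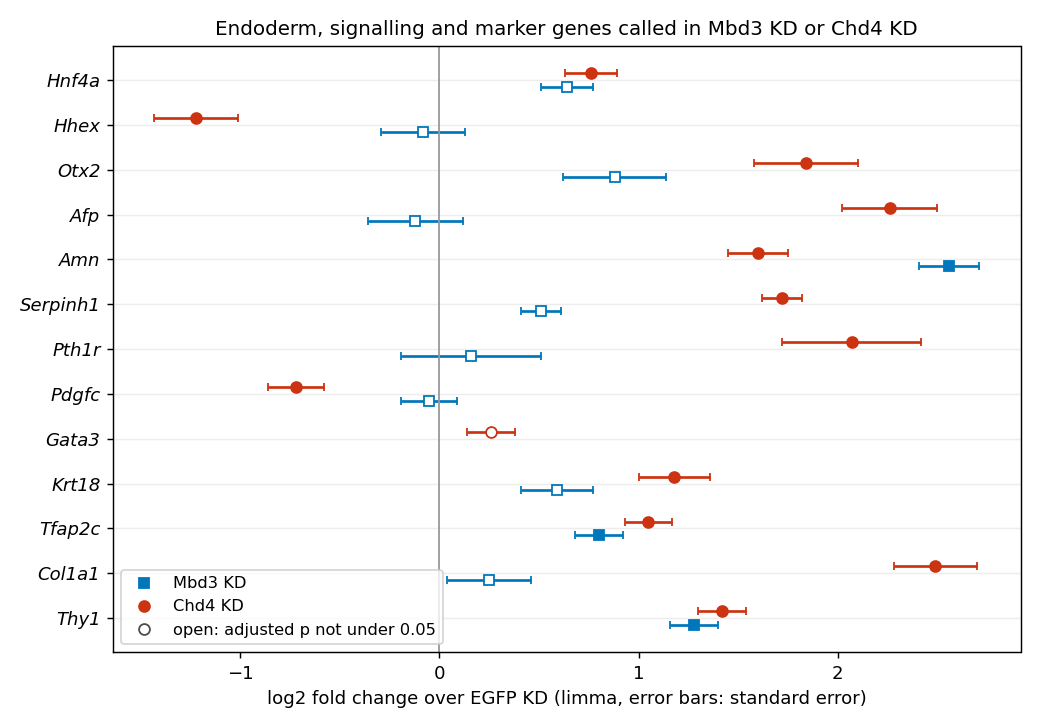
Log2 fold change over EGFP KD (x axis, limma, bars show the standard error) in Mbd3 KD (squares) and Chd4 KD (circles) of the list genes called in either, filled where called. Amn, Tfap2c and Thy1 are filled in both, and Hhex and Pdgfc are called lower in Chd4 KD. Gata3 in Mbd3 KD, not well above background on either array, is left out.

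Markers of other cells were counted on the same arrays. None of 10 ES cell markers was called in any KD, with medians between -0.04 and 0.12. The summed scaled signal of that list ran from 140 to 164 in EGFP KD and from 137 to 152 in Chd4 KD. Of this sum, 71.2% to 80.1% came from 4 genes saturated on at least 1 of these arrays (Pou5f1, Zfp42, Esrrb and Dppa5a). Of the 4, 2 were saturated on all of these arrays and cannot show a change, and saturation limits what the others can show. Without these 4 genes the sum ran from 36.2 to 40.3 in EGFP KD and from 30.1 to 34.1 in Chd4 KD. Dppa5a, which had the highest signal of the list in EGFP KD, was saturated on both arrays of each group, so no fold is given. Of 10 trophectoderm markers, Krt18 (1.18, limma adjusted p = 0.02) and Tfap2c (1.05, limma adjusted p = 0.0066) were called higher in Chd4 KD, and Tfap2c (0.80, limma adjusted p = 0.044) was called higher in Mbd3 KD, a call held in 3 of 22 alternatives. Gata3, not well above background in Mbd3 KD, was called at least 1.82-fold lower there with its values held at the floor (limma adjusted p = 0.035), held in 5 of 21. With the same floor and no call, it was 1.82-fold lower in Dnmt1 KD and in Tet1 KD. It was 1.64-fold lower in Mbd2 KD and 1.2-fold higher in Chd4 KD, also with no call. The summed signal of the 10 trophectoderm markers, to which bright genes add most, ran from 7.31 to 8.05 in EGFP KD. It was 14.7 to 15.5 in Chd4 KD and 12.1 to 12.3 in Mbd3 KD. In Chd4 KD 9 were higher and 1 lower (median 0.35), and in Mbd3 KD 6 were higher and 4 lower (median 0.27). Of 8 fibroblast markers, 7 were tested, and Col1a1 (2.49, limma adjusted p = 0.002) and Thy1 (1.42, limma adjusted p = 0.002) were called higher in Chd4 KD and Thy1 (1.28, limma adjusted p = 0.011) in Mbd3 KD. The summed signal of these 7, to which bright genes add most, ran from 5.29 to 6.06 in EGFP KD. The Chd4 KD arrays gave 9.80 to 12.8 and the Mbd3 KD arrays 9.88 to 10.1. After Chd4 knockdown, signals of 3 fibroblast markers rose and those of 4 fell, with a median log2 fold change of -0.02. The split was the same after Mbd3 knockdown, where the median was -0.23. Of 10 definitive endoderm and mesoderm markers, 7 were tested, and Hhex was the single call, in Chd4 KD. The part of these other cell types in the values of Lama1 and Sox7 was not tested.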

How the data were processed

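Total RNA from 12 E14 cultures (6 groups of 2) was labelled with Cy3 and hybridised singly to Agilent 4 x 44K arrays. The authors extracted spot intensities with Agilent Feature Extraction 10.7.1.1 and deposited the processed signal, a background-corrected intensity without normalization between arrays. A second deposited table, in log2 units against the control, was not used. From 43020 spots that are not controls, each array was scaled to its 75th percentile, floored at 0.0344 and logged. Spots marked as outliers were dropped and spots of a probe averaged. A probe was kept if well above background on both arrays of a group, and the brightest stood for each gene. RefSeq accessions were named through a GRCm38.p6 table, and 19391 of 29839 genes had a symbol. A 6-group linear model was fitted (limma 3.58.1, run in R 4.3.3), with Benjamini-Hochberg adjustment over all genes, and 2 arrays per group limit the precision. Tested on simulated data for Chd4 KD (29487 genes), it recovered 13% of genes changed by a log2 of 1 and 29% of those changed by 1.5. None was in the wrong direction, and 2 calls were false. The simulated arrays had independent noise with no slide effect and 100 changed genes of each size, so recovery in the real data may differ. Named genes are the 10 members with every probe, the targets, every list gene called, for a list with no call its brightest gene, and the 5 genes most like the basement membrane members. Values of Lamb1, Lamc1, Col4a2, Cubn, Pou5f1 and Nanog, and genes most like single members, were added after their values were seen. Members and lists were chosen with earlier results of these data known. Alternatives covered background correction, normalization, filters, probes, blocks, the arrays fitted, and each array left out. A lower floor, the fit without the 2 arrays that go against their labels, the contrasts between Chd4 KD and other KDs and the values without saturated probes were added after seeing the data. Replicates are biological duplicates per the study's methods.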

Additional observations from a re-analysis of the deposited data

How the results depend on the processing

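Of 1090 member fold changes under 22 alternatives, 1 lost its call, 5 gained one, 0 turned sign with a call, and 71 turned sign with no call in either. The gains count Gata4 without a Dnmt1 KD array and Sox7 without an Mbd2 KD array once for each array left out. With normexp correction 67 genes were called for Chd4 KD and 2 for Mbd3 KD. Quantile normalization called 136 in Mbd3 KD, probes well above background on all 12 arrays 93, slide as a block 56 and the lower floor 41, against 228. The lower floor called 490 in Chd4 KD, against 952. Without a filter on dim probes Dnmt1 KD had 7 calls and Tet1 KD 1, and the mean of a gene's probes called 1 in Tet1 KD. Only the 4 arrays of a comparison gave 0 genes for Chd4 KD and for Mbd3 KD, and 0 members. With both arrays that go against their labels left out, 509 genes were called in Chd4 KD, 3 in Mbd2 KD (1 array left, assumed to vary like the other groups) and 0 in Mbd3 KD, where Amn, Thy1, Tfap2c, Gata3 and Mbd3 itself lost their calls. The share of calls that were higher in Chd4 KD was 61.2%, and 50.7% with normexp correction. The causes were not tested.

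Leaving out each array in turn gave 318 to 858 genes for Chd4 KD, 28 to 123 for Mbd3 KD, 0 to 39 for Dnmt1 KD, 0 to 32 for Tet1 KD and 0 to 48 for Mbd2 KD. Members called lay between 1 and 2 in Chd4 KD and between 0 and 1 in Mbd3 KD, where Gata4 was called without either Dnmt1 KD array (limma adjusted p = 0.0462). The lowest count was without EGFP KD replicate 1 in both. Leaving out either array of a group that is not in a comparison gives the same fit for that comparison. Such alternatives are counted for each array here and are not separate support. With the replicate block, 2 members (Lama1, and Sox7 at a limma adjusted p of 0.0187) and 1284 genes were called in Chd4 KD. Same-numbered arrays deviated together (r over 0.1) in 10 of 15 pairs of groups, with r between -0.04 and 0.77. Replicate number went partly with the slide. Replicate 1 of EGFP, Dnmt1, Mbd3 and Mbd2 KD lay on slide 1, and both Tet1 KD arrays lay on slide 2. The labels state no pairing, so the main fit has no block for the number. The block changed no other member call.

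In Chd4 KD the call held in 21 of 22 alternatives for Serpinh1 and Thy1, 20 for Amn and Col1a1, 19 for Tfap2c, 17 for Krt18, 16 for Otx2, 14 for Hhex, 13 for Pth1r and 7 for Chd4 itself, and in 18 of 21 for Afp. In Mbd3 KD it held in 20 of 22 for Mbd3, 19 for Amn, 15 for Thy1 and 3 for Tfap2c, and in 5 of 21 for Gata3. Values at the floor have no order, which limits Sox7, Pdgfra and Gata6.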
